A study of Drosophila melanogaster with 12 samples.

Results

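The 3 genes described here, Cyp28d1, Cyp6d5 and Cyp313a1, code for cytochrome P450 enzymes and were followed in heads of drug-fed flies. They were taken by their single gene symbols in the probe annotation, updated through the Entrez identifier. They are 3 of the 72 P450 genes with a probe on the array and 3 of its 6793 genes with a single symbol. Each of the other 69 P450 genes had a value on 5 of the 12 arrays or fewer.

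The samples were heads of unmated males of Drosophila melanogaster, strain Oregon-R, a laboratory wild type. Treated flies ate normal food with 8 mg/ml PTZ (pentylenetetrazole, a convulsant) and 5 mg/ml LEV (levetiracetam, an antiepileptic drug), and control flies of the same set ate normal food without drugs. The 3 treated groups had PTZ and LEV for 12 h, PTZ and LEV for 2 d, or PTZ and LEV for 4 d followed by PTZ without LEV for 3 d, called 7 d here. Each group had 4 arrays, and each array set RNA of 1 pool of treated heads against RNA of a control pool. The labels call the 4 arrays biological replicates. The samples analysed here hold no group on LEV alone or on PTZ alone throughout, so effects of the 2 drugs on these genes cannot be told apart. For the last days of the 7 d group the series design text once names LEV, while the treatment protocols name PTZ, which is used here. Age was labelled as 3 to 4 days, and the growth protocol adds 10 to 11 days of keeping. Vials held 30 flies. RNA came from pooled whole heads, so fewer cells of a type and less RNA per cell cannot be told apart.

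Cytochrome P450 enzymes are haem proteins that insert an oxygen atom into small, mostly greasy molecules. For many of them, electrons are passed on from NADPH by cytochrome P450 reductase. In insects some P450 enzymes make and break down the moulting hormone and other signals, and others oxidise plant toxins, insecticides and drugs. Many of these detoxifying genes are switched up by foreign compounds in the gut, the Malpighian tubules and the fat body, and the fly head also holds fat body beside brain, eyes and antennae. Cyp28d1 is known for its part in resistance of fly larvae to nicotine. Cyp6d5 belongs to the CYP6 family, which holds many of the insecticide-metabolising P450s of insects.

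Every value below is a log2 ratio between the RNA pools of an array, and 0 means equal signal. Such a ratio carries no expression level, so the genes cannot be ranked by abundance. No source settles which channel was the numerator: Cy5 on all arrays, or the treated sample on all arrays. In replicates 1 and 2 the treated pool was labelled with the dye Cy5, so that these arrays read treated over control in both of these readings. In replicates 3 and 4 it was labelled with Cy3, and their sign depends on the reading. The inverse ratio, Cy3 over Cy5 or control over treated, was assumed not to be the deposit. It would reverse the sign of every value, also on the Cy5-treated arrays. On arrays of a single dye orientation, an effect of the dye on a gene and one of treatment cannot be told apart. Values are given turned, with the sign of replicates 3 and 4 reversed so that all arrays read treated over control if the deposit was Cy5 over Cy3, and also as deposited. All were set relative to the median of their array, since the array medians of deposited values ran from -0.69 to 0.85. Centring removes any shift shared by the whole array, which makes the values relative to the average measured gene. In the source names of 2 arrays, replicate 1 of 7 d and replicate 4 of 2 d, both dye channels appear as untreated, and the treatment given in each channel's protocol was used instead. The first of these has no value for any of the 3 genes, and results at 2 d are also given without the second.

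The arrays were sparse. Of 27648 spots, 1394 to 14042 had a value per array, and the spots of a probe differed by a median of 0.215 to 0.748 log2 units. Markers of head tissue and of other tissues were looked for among the measured genes. All 8 eye genes on the array had a value somewhere, as had 2 of 2 neuronal and 2 of 2 glial genes. So had 5 of 8 fat body, 1 of 1 gut and 1 of 4 male reproductive tract genes. On 7 d replicate 4 alone, 7102 of the 13824 probes had a value, so a value somewhere says little about a tissue. On at least 3 arrays of a time the counts were 6, 0, 1, 3, 0 and 0, in the same order. Among all probes with a single symbol, 4.51%, 2.59% and 1.88% had a value on at least 3 arrays of 12 h, 2 d and 7 d. Having a value shows that a spot was kept by the authors, not how abundant the RNA was.

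The 3 genes were measured more often than any other P450 gene. They were chosen with earlier results of these data known, so this place among the P450 genes is a description, not a finding. Cyp28d1 and Cyp313a1 each had a value on 11 of 12 arrays and Cyp6d5 on 8. Among the 7558 probes with a single gene symbol, 0.37% had values on as many arrays as Cyp28d1 and Cyp313a1, and 1.85% on as many as Cyp6d5. Of the 72 P450 genes, 33 had no value on any array, 19 had a value on 1 array and 17 on 2 to 5. A single array, 7 d replicate 4, with 14042 valued spots, was the only one to measure 13 of them.

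**Figure D1:**
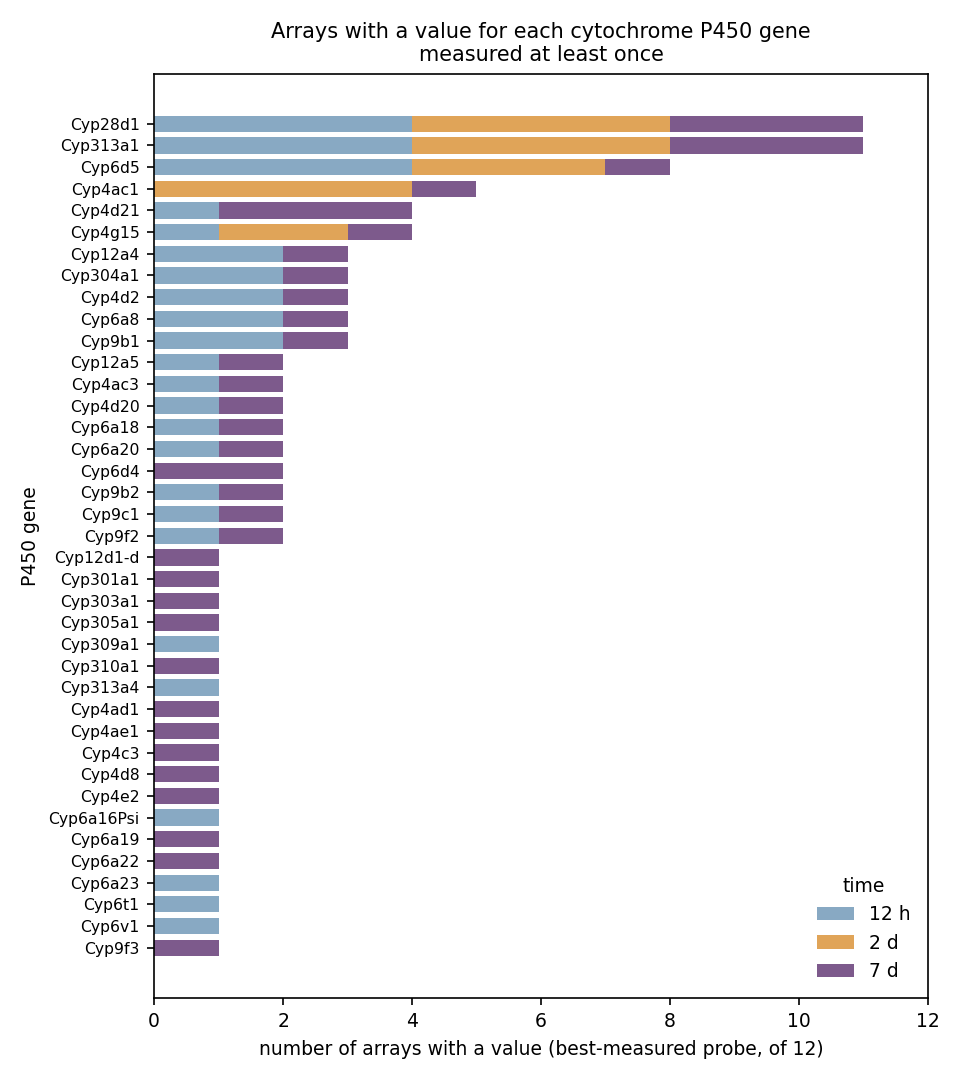
Number of arrays (horizontal axis, of 12) on which the best-measured probe of each P450 gene had a value, for the 39 genes with any value, coloured by time. Cyp28d1 and Cyp313a1 reach 11 arrays and Cyp6d5 reaches 8, while the next gene, Cyp4ac1, reaches 5.

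The family as a whole was sparsely measured, as were probes in general. At 12 h, 2 d and 7 d, 3, 4 and 3 of the 134 P450 probes reached 3 arrays with a value, or 2.24%, 2.99% and 2.24%. The shares among all probes with a single symbol were 4.51%, 2.59% and 1.88%, higher at 12 h and lower at 2 d and 7 d. Among all probes, with or without a symbol, they were 9.28%, 7.24% and 6.26%, higher at each time. These differences were not tested. Missing values for the 3 genes were not spread evenly. Cyp28d1 and Cyp313a1 lacked a value on 7 d replicate 1, the array with the fewest valued spots, and Cyp6d5 lacked one on 2 d replicate 4 and on 7 d replicates 1, 2 and 3.

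Not every probe of a gene worked. Cyp28d1 had 3 probes on the array, of which 1 gave values, Cyp6d5 had 2, of which 1 did, and Cyp313a1 had 1. Where both spots of a probe had a value they lay close together: the median difference was 0.151 for Cyp28d1 (11 arrays, 0.052 to 0.580), 0.155 for Cyp6d5 (8 arrays, 0.092 to 0.404) and 0.146 for Cyp313a1 (10 arrays, at most 0.283). The SD between replicate arrays, given below, was larger than this for each gene at each time with 3 or more arrays. On 12 h replicate 3 Cyp313a1 rested on a single spot, at a deposited log2 ratio of -2.59.

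**Figure D2:**
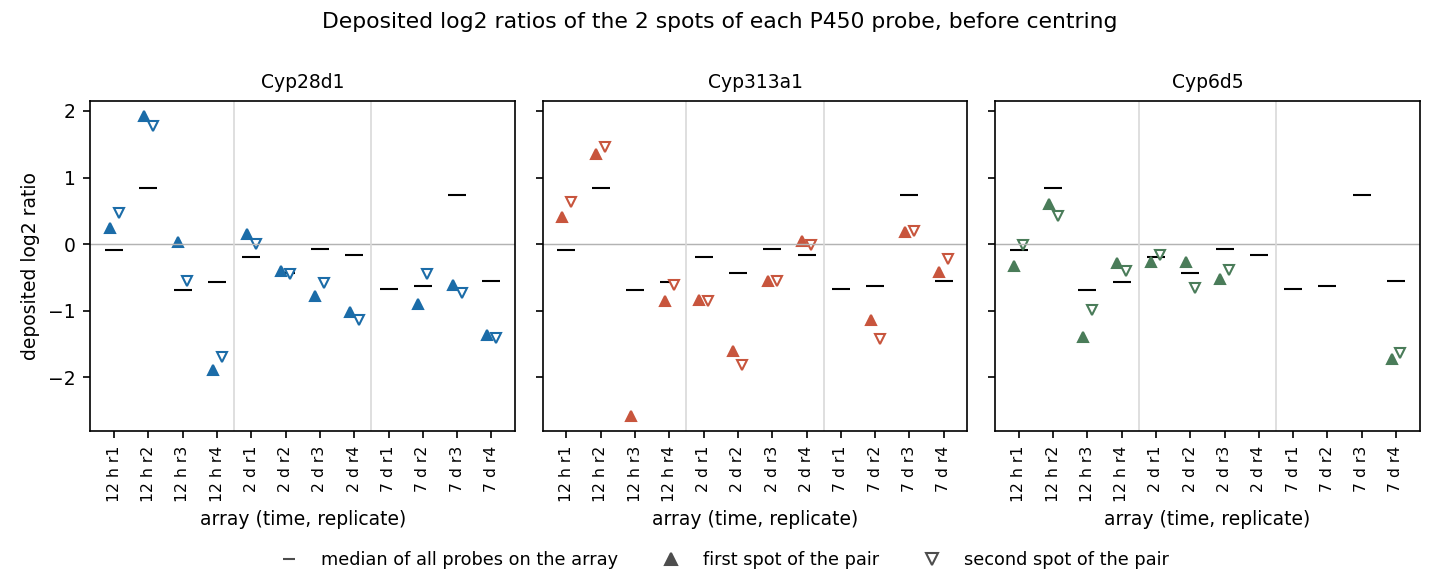
Deposited log2 ratios, before centring and turning, of both spots of each P450 probe on each array (filled and open triangles), with the array's median over all probes (dash). The spots of a pair differ by at most 0.580, 0.283 and 0.404 for Cyp28d1, Cyp313a1 and Cyp6d5, and the single Cyp313a1 spot of 12 h replicate 3 is the lowest point at -2.59.

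Cyp28d1, the gene tied to nicotine resistance in larvae, lay above the array median on 9 of 11 arrays when dye-swapped arrays were turned. As deposited it did so on 5 of 11. The share of all probes above 0 on as many arrays was not counted, so these counts are a description. On the 5 arrays with the treated sample in Cy5, which read the same in both readings, Cyp28d1 was above 0 on 4, with a range of -0.04 to 1.01. These arrays share 1 dye orientation, so an effect of the dye cannot be told apart from treatment there. At no time did Cyp28d1 pass the test. The values by array show where the 2 readings part.

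At 12 h, replicates 1 to 4 of Cyp28d1 stood at 0.44, 1.01, -0.43 and 1.24 turned, so that 3 of 4 were above 0 and replicate 3 was below. At 2 d they stood at 0.28, 0.02, 0.61 and 0.91, all above 0, with replicate 2 next to 0. At 7 d, replicates 2, 3 and 4 stood at -0.04, 1.42 and 0.84. As deposited, replicates 3 and 4 of 12 h stood at 0.43 and -1.24, those of 2 d at -0.61 and -0.91, and those of 7 d at -1.42 and -0.84. In that reading the 2 d Cy5-treated arrays both lay above the Cy3-treated ones, as for 10.9% of the 740 probes on all 4 arrays of that time. All 3 values at 7 d were then below 0, where 14.1% of 865 probes were below 0 on every array that measured them. Being above 0 on all 4 arrays of 2 d in the turned reading was shared by 2.3% of the 740 probes.

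The mean turned log2 ratio of Cyp28d1 was 0.56 ± 0.74 at 12 h (SD, n = 4), a 1.48-fold difference on the linear scale. It was 0.45 ± 0.39 at 2 d (SD, n = 4), or 1.37-fold, and 0.74 ± 0.73 at 7 d (SD, n = 3), or 1.67-fold. Each 95% interval from limma, which tests each probe against 0 with a spread shared across probes, reached below 0: -0.31 to 1.44, -0.20 to 1.10 and -0.43 to 1.91. The limma p-values adjusted over all probes (Benjamini-Hochberg) were 0.867, 0.995 and 0.923, and unadjusted they were 0.161, 0.132 and 0.167. As deposited the means were 0.16 ± 0.97, -0.31 ± 0.55 and -0.77 ± 0.69, with adjusted p-values from limma of 0.924, 0.593 and 0.607, so the sign at 2 d and 7 d depends on the reading. Without the 2 d array whose source names conflict, the turned mean at 2 d was 0.30 (limma adjusted p = 0.994).

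Against all other measured probes, the turned means of Cyp28d1 lay toward the upper end at each time. They were higher than those of 91.2% of the 1283 probes tested at 12 h, 86.8% of 1001 at 2 d and 89.9% of 865 at 7 d. As deposited these shares were 60.1%, 25.7% and 10.2%. The Cy5-treated and Cy3-treated arrays contributed differently: at 12 h their turned means were 0.72 and 0.40, at 2 d 0.15 and 0.76, and for 7 d -0.04 (1 array) and 1.13.

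Cyp6d5, of the CYP6 family, ranged from -0.33 to 1.13 turned over the 8 arrays that measured it, with a median of -0.02. Turned, replicates 1 to 4 stood at -0.09, -0.33, 0.49 and -0.21 at 12 h, and replicates 1 to 3 stood at -0.01, -0.03 and 0.38 at 2 d. The only value at 7 d, on replicate 4, was 1.13 turned and -1.13 as deposited, the farthest from 0 of its 8 values and the only one with no replicate. None of the 4 Cy5-treated arrays was above 0, with values from -0.33 to -0.01, while 3 of 4 Cy3-treated arrays were above 0 turned and 1 of 4 as deposited.

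The mean turned log2 ratio of Cyp6d5 was -0.03 ± 0.36 at 12 h (SD, n = 4; 95% interval -0.65 to 0.58; limma adjusted p = 0.980). At 2 d it was 0.11 ± 0.23 (SD, n = 3; 95% interval -0.66 to 0.89; limma adjusted p = 0.995). As deposited the means were -0.18 ± 0.31 and -0.14 ± 0.21 (limma adjusted p = 0.848 and 0.776). The sign of so small a mean was not stable: without replicate 2 or replicate 4 it was 0.06 or 0.02 at 12 h, and without replicate 3 it was -0.02 at 2 d. Its SDs were smaller than the median SD over tested probes, which was 0.617 at 12 h and 0.721 at 2 d. No test was possible at 7 d, with 1 array.

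Cyp313a1 had the widest range of the 3 genes over all arrays, from -1.27 to 1.89 turned, and its turned means at 12 h and at later times lay on different sides of 0. Turned, replicates 1 to 4 stood at 0.60, 0.56, 1.89 and 0.17 at 12 h, at -0.64, -1.27, 0.48 and -0.18 at 2 d, and replicates 2, 3 and 4 stood at -0.65, 0.55 and -0.23 at 7 d. It was thus above 0 on 4 of 4 arrays at 12 h, on 1 of 4 at 2 d and on 1 of 3 at 7 d. Among the 981 probes with a value on all 4 arrays of 12 h, 7.34% were above 0 on all 4. As deposited, replicates 3 and 4 were at -1.89 and -0.17 at 12 h and the gene was above 0 on 2 of 4 arrays there.

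The mean turned log2 ratio of Cyp313a1 at 12 h was 0.81 ± 0.75 (SD, n = 4), or 1.75-fold, with a 95% interval of -0.08 to 1.69. Its limma adjusted p was 0.867 and its unadjusted p from limma was 0.0665. At 2 d the mean was -0.40 ± 0.74 (SD, n = 4; 95% interval -1.31 to 0.50; limma adjusted p = 0.995), and -0.48 without the array whose source names conflict. At 7 d it was -0.11 ± 0.61 (SD, n = 3; limma adjusted p = 0.966), and 0.16 without replicate 2. As deposited the 3 means were -0.23 ± 1.17, -0.55 ± 0.60 and -0.33 ± 0.48 (limma adjusted p = 0.915, 0.451 and 0.734), so the value at 12 h changed sign with the reading and those at 2 d and 7 d did not.

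The highest value, 1.89 at 12 h replicate 3, was the one that rested on a single spot. That array also had the largest median difference between spots of a probe (0.748), with 40.8% of pairs differing by over 1 log2 unit. Without it the 12 h mean of Cyp313a1 was 0.44. The turned mean at 12 h was higher than that of 95.6% of tested probes, and at 2 d and 7 d it was higher than that of 13.8% and 33.9%. As deposited these shares were 26.1%, 11.2% and 31.4%, so the place near the upper end at 12 h held in the turned reading only.

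**Figure D3:**
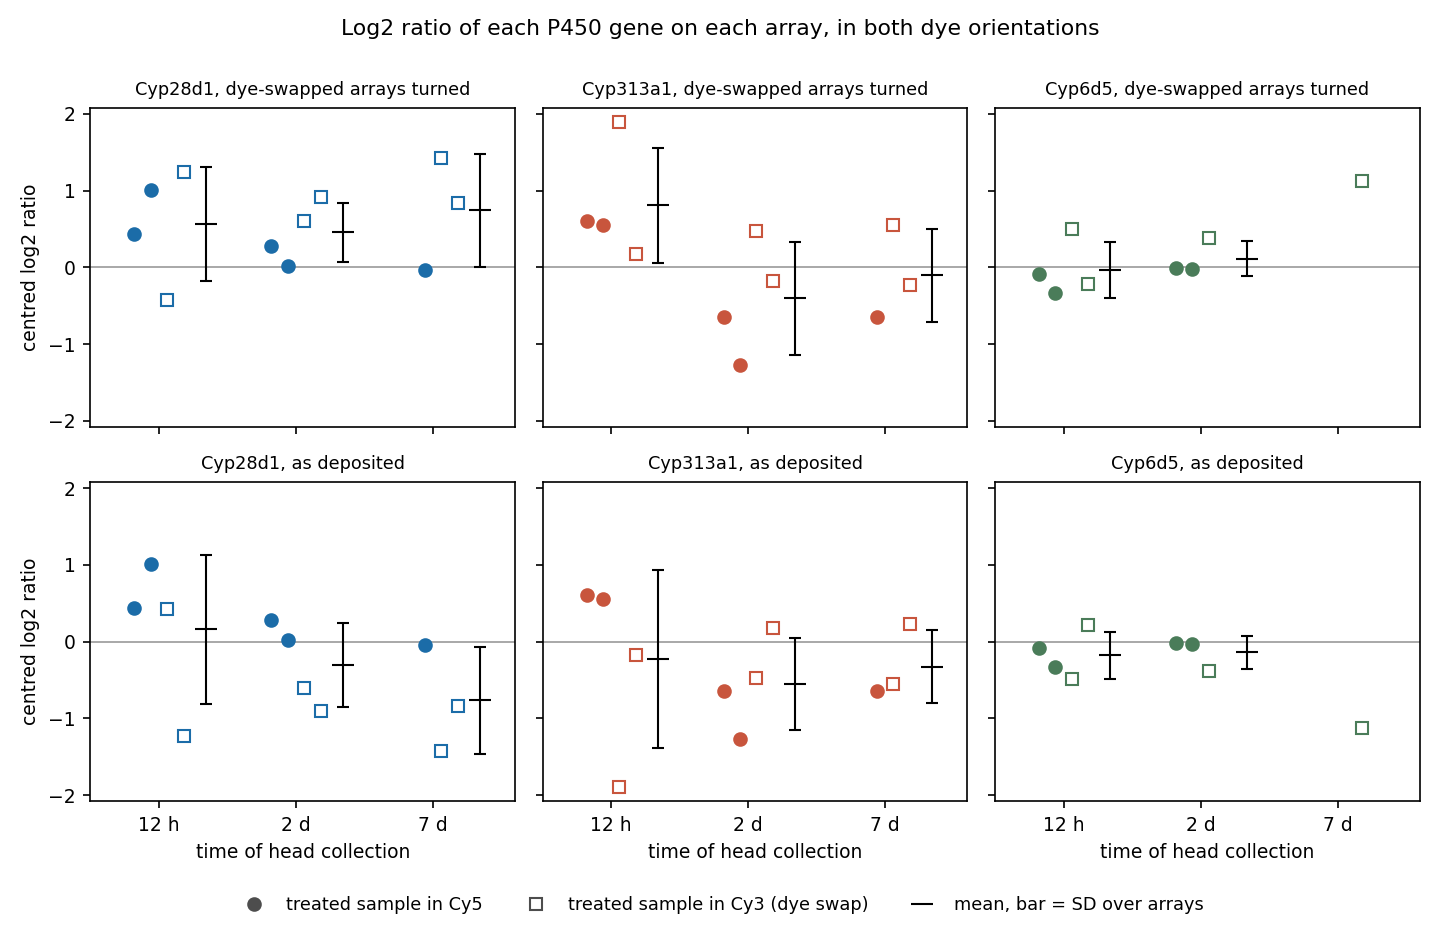
Centred log2 ratio (vertical axis) of Cyp28d1, Cyp313a1 and Cyp6d5 on each array by time, with dye-swapped arrays turned (upper row) and as deposited (lower row), where 0 means equal signal in both pools. Filled circles carry the treated sample in Cy5 and keep their place in both rows, open squares carry it in Cy3 and change sign, and bars are the mean ± SD over arrays.

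None of the 3 genes passed the adjusted threshold of 0.05 at 12 h or 2 d, and neither of the 2 tested at 7 d did. The same held for every probe: limma called 0 of 1283 at 12 h, 0 of 1001 at 2 d and 0 of 865 at 7 d, or 0% each time. At an unadjusted p under 0.05, limma had 58 probes (4.52%), 16 (1.6%) and 34 (3.93%), with none of the 3 genes among them. As deposited it also called 0 at each time, with 103 (8.03%), 133 (13.3%) and 69 (7.98%) at the unadjusted threshold, again without the 3 genes. No other tool was used for these tests.

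**Figure D4:**
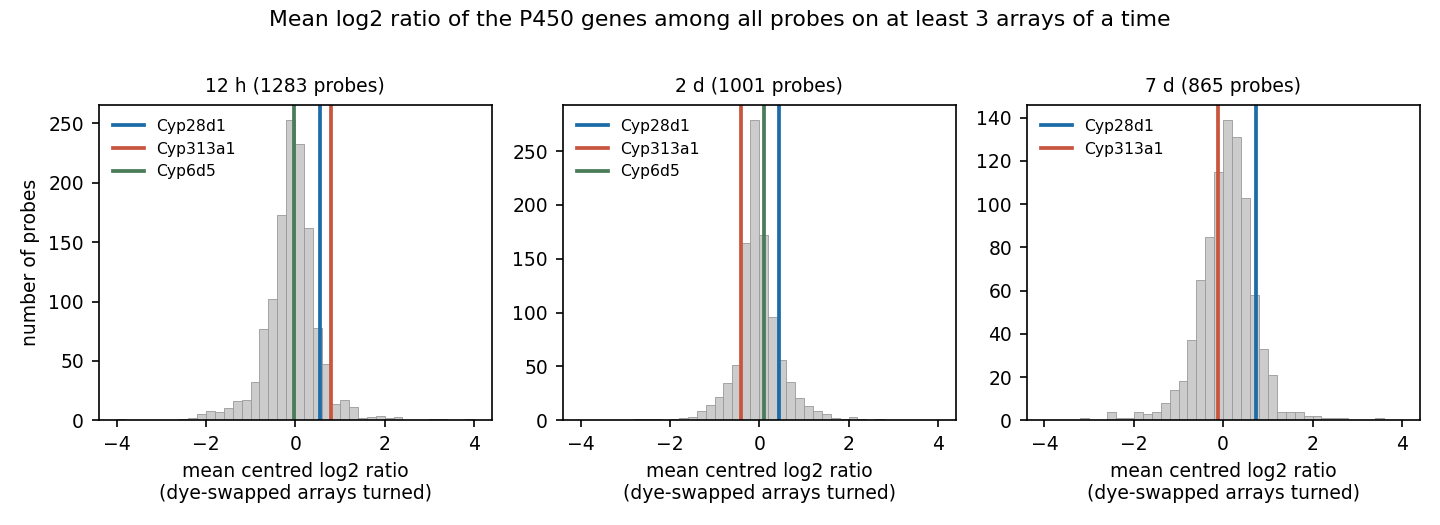
Histograms of the mean centred log2 ratio (horizontal axis, dye-swapped arrays turned) of all probes on at least 3 arrays of a time, with the P450 genes as vertical lines. Cyp28d1 lies right of centre at all 3 times (0.56, 0.45 and 0.74), Cyp313a1 lies right of centre at 12 h (0.81) and left of it at 2 d (-0.40) and 7 d (-0.11), and Cyp6d5 lies near the centre.

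Differences between times were tested for Cyp28d1 and Cyp313a1, which were on at least 3 arrays of every time, in 1 limma fit of 12 arrays over 658 probes. The 7 d group also had PTZ without LEV for its last 3 d. In comparisons with 7 d, time and the removal of LEV therefore cannot be told apart. In the order of turned means, Cyp28d1 ran from 7 d through 12 h to 2 d, and no neighbours in that order differed beyond their spread. The differences were -0.11 for 2 d minus 12 h (95% interval -1.28 to 1.06), 0.18 for 7 d minus 12 h (-1.09 to 1.44) and 0.29 for 7 d minus 2 d (-0.98 to 1.55), with adjusted p-values from limma of 0.997, 0.984 and 0.984. As deposited they were -0.46, -0.93 and -0.46. Without the arrays whose source names conflict the 3 turned differences were -0.26, 0.18 and 0.44. Leaving out replicate 2 turned the first to 0.18, and leaving out replicate 3 turned the other two to -0.49 and -0.0018.

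For Cyp313a1 the order was 12 h, 7 d, 2 d. Turned, the difference of 2 d minus 12 h was -1.21 (95% interval -2.46 to 0.04; limma adjusted p = 0.997, unadjusted 0.0563). The difference was -0.91 for 7 d minus 12 h (95% interval -2.26 to 0.44, limma adjusted p = 0.967) and 0.30 for 7 d minus 2 d (-1.05 to 1.65, limma adjusted p = 0.984). As deposited these were -0.33, -0.10 and 0.23, and without the arrays whose source names conflict they were -1.28, -0.91 and 0.37 turned. The ranges of the times overlapped, since the lowest value at 12 h (0.17) lay below the highest at 2 d (0.48) and at 7 d (0.55). The 3 contrasts called 0 of 658 probes (0% each), with 20 (3.04%), 26 (3.95%) and 13 (1.98%) at an limma unadjusted p under 0.05.

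The Cy5-treated arrays, whose sign does not depend on the reading, showed this difference in Cyp313a1. They stood at 0.60 and 0.56 at 12 h and at -0.64 and -1.27 at 2 d, with no overlap between these times, and at -0.65 on the single array of 7 d. Of the 754 probes measured on the 4 arrays of 12 h and 2 d in that orientation, 19.1% likewise had both 12 h values above both 2 d values, and 6.23% also had the former above 0 and the latter below. On these arrays alone the difference was -1.54 with a limma p of 0.0892 unadjusted and 0.837 adjusted. The Cy3-treated means went the same way when turned, from 1.03 at 12 h to 0.15 at 2 d, and the opposite way as deposited, from -1.03 to -0.15. Their turned values overlapped, at 1.89 and 0.17 at 12 h and at 0.48 and -0.18 at 2 d, and the 1.89 rested on a single spot.

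Averaged over the 3 times, a comparison added after the data were seen, Cyp28d1 stood at 0.59 turned (95% interval 0.08 to 1.09). Its limma unadjusted p was 0.0265 and its limma adjusted p was 0.974, with 0 of 658 probes called (0%) and 25 (3.8%) under 0.05 unadjusted. Without the arrays whose source names conflict it was 0.53 (limma adjusted p = 0.972, unadjusted 0.0556). As deposited the average was -0.30 (limma adjusted p = 0.519). Cyp313a1 averaged 0.10 turned and -0.37 as deposited (limma adjusted p = 0.978 and 0.454). Its turned average was -0.23 without replicate 3 and 0.07 without the arrays whose source names conflict. As deposited, 24 of 658 probes passed (3.65%), and neither gene was among them.

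The 3 genes did not follow one another closely across arrays. Likeness was measured as the cosine of the centred ratios about 0, which runs from -1 to 1 and is the same in either reading, over at least 8 shared arrays. It was 0.108 between Cyp28d1 and Cyp313a1 (11 arrays), 0.122 between Cyp28d1 and Cyp6d5 (8 arrays) and 0.182 between Cyp313a1 and Cyp6d5 (8 arrays). The median cosine over all genes compared was 0.243 for Cyp28d1 (127 genes), 0.414 for Cyp313a1 (127) and 0.521 for Cyp6d5 (105), so each pair lay below these medians. Arrays are shared by all such pairs, and the values are a description.

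Besides the 3 members, no P450 gene had enough arrays to enter this comparison. The genes most like each member are named with their cosine. For Cyp28d1 they were Ip259 (cosine 0.728, 8 arrays), Rtnl1, a reticulon of the endoplasmic reticulum (0.716, 10 arrays), and rdgC, a phosphatase of photoreceptors (0.693, 10 arrays). For Cyp313a1 they were Golgin84, a Golgi protein (0.857, 8 arrays), Idgf6, a secreted chitinase-like protein (0.842, 10 arrays), and mRpS34 of the mitochondrial ribosome (0.820, 9 arrays). For Cyp6d5 they were CAH1, a carbonic anhydrase (0.920, 8 arrays), alphaSnap, which helps take SNARE complexes apart (0.839, 8 arrays), and IscU, a scaffold for iron-sulphur clusters (0.827, 8 arrays).

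In the order of genes in the RefSeq table, Cyp28d1 lies next to Cyp28d2, a P450 gene of the same family. Cyp28d2 had a probe on the array but no value on any of the 12 arrays, so the neighbours could not be compared. No P450 gene lay within 2 genes on either side of Cyp313a1 or Cyp6d5.

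Few other P450 genes gave enough values to set beside the 3. Cyp4ac1 was tested at 2 d, where replicates 1 to 4 stood at -0.31, -1.19, -0.11 and 0.16 turned, a mean of -0.36 ± 0.59 (SD, n = 4; limma adjusted p = 0.995). As deposited its mean was -0.39 ± 0.56 (limma adjusted p = 0.533). Without replicate 4, the array whose source names conflict, the means of Cyp4ac1 were -0.54 turned and -0.46 as deposited (n = 3). Its Cy5-treated arrays were both below 0 at 2 d, as were those of Cyp313a1, at -0.64 and -1.27. Cyp6d5 stood next to 0 on these arrays, at -0.01 and -0.03, and Cyp28d1 stood at 0.28 and 0.02. The share of all probes below 0 on both arrays was not counted, so these signs are not read as a direction of the family. Cyp4d21, a gene known for higher expression in male heads and a role in courtship, was tested at 7 d. Replicates 1, 3 and 4 stood at -0.43, 0.92 and 0.03 turned, a mean of 0.17 ± 0.68 (SD, n = 3; limma adjusted p = 0.951), and as deposited -0.46 ± 0.45 (limma adjusted p = 0.664). Replicate 1 is an array whose source names conflict, and without it the means of Cyp4d21 were 0.47 turned and -0.47 as deposited (n = 2).

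The other 6 P450 genes with values on 3 or 4 arrays in all did not reach 3 arrays of a single time, the minimum set for a test. At 12 h, Cyp6a8, a gene known for its induction by barbiturates and caffeine, stood at 0.75 on replicate 2. The sign on that array does not depend on the reading. Turned, Cyp6a8 stood at 1.42 on 12 h replicate 3 and at -1.05 on 7 d replicate 4. On 12 h replicate 3, 40.8% of spot pairs differed by over 1 log2 unit. Turned values on replicates 3 and 4 of 12 h were 2.32 and -0.17 for Cyp4d2, 0.53 and 0.31 for Cyp9b1, 0.34 and -0.41 for Cyp304a1, and -0.24 and 0.13 for Cyp12a4, a gene tied to resistance to the insecticide lufenuron. These genes thus went both ways at 12 h, and all these values but that of Cyp6a8 on replicate 2 change sign as deposited. On 7 d replicate 4 the same 5 genes ranged from -1.05 to 0.74 turned. Cyp4g15, known for expression in the nervous system, stood at -1.85 and 0.55 on the Cy5-treated arrays of 2 d, on opposite sides of 0.

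Genes that work beside P450 enzymes were grouped in 6 lists. Of the redox partners, which pass electrons to P450s, 1 of 2 genes on the array had any value and 0 reached 3 arrays of a single time. The corresponding counts were 12 and 4 of 23 for glutathione transferases, which conjugate reactive products, and 8 and 0 of 12 for UDP-glycosyltransferases, which attach sugars. They were 1 and 0 of 1 for epoxide hydrolases, 3 and 1 of 6 for regulators of P450 genes and 2 and 0 of 4 for efflux transporters. For scale, 7 d replicate 4 alone had a value for 7102 of the 13824 probes. Among all probes with a single symbol, 4.51%, 2.59% and 1.88% reached 3 arrays at 12 h, 2 d and 7 d. The counts are therefore not read as a result about the lists.

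The 5 genes of these lists that could be tested did not pass in either direction (limma adjusted p from 0.599 to 0.999 over both readings). At 12 h the glutathione transferases GstE12 and GstE13 had turned mean log2 ratios of 0.34 ± 0.22 (SD, n = 4) and 0.34 ± 0.48 (SD, n = 3), and -0.01 ± 0.45 and -0.12 ± 0.62 as deposited. GstT3 had -0.15 ± 0.59 turned and 0.49 ± 0.16 as deposited (SD, n = 3). EcR, the receptor of the moulting hormone, had -0.17 ± 0.42 turned and -0.19 ± 0.41 as deposited (SD, n = 4). At 2 d GstE12 had -0.07 ± 0.27 turned (SD, n = 4; -0.16 without replicate 4) and -0.19 ± 0.17 as deposited, and GstD1, a transferase that acts on DDT, had 0.20 ± 0.12 turned and 0.15 ± 0.20 as deposited (SD, n = 3).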

How the data were processed

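Per the labels, cRNA of the treated and control pools was labelled with Cy3 or Cy5 and hybridised to 2-colour cDNA arrays. Per the series design text, the authors scanned them on a GenePix 4000A, quantified spots with GenePix Pro 6.0, normalised ratios in Acuity 4.0 and ran a one-class SAM 3.0 test. What the authors deposited is a log2 ratio between dyes for each spot. The base was read from the highest value, 16.61, and the direction stays unknown. Intensities were not used, so signal over background is unknown, and the number of arrays limits the precision.

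Adjacent spots were averaged (13824 probes), dye-swapped arrays turned and arrays centred on their medians. Array medians of deposited values at 12 h were -0.08, 0.85, -0.69 and -0.56 for replicates 1 to 4. At 2 d they were -0.20, -0.44, -0.08 and -0.17. At 7 d they were -0.67, -0.63, 0.74 and -0.55. Of the probes, 7558 had 1 gene symbol, 51 several and 6215 none; 7447 matched RefSeq's table (Release 6 plus ISO1 MT). Probes on at least 3 of 4 arrays of a time were tested with limma 3.58.1 in R 4.3.3 (two-sided, Benjamini-Hochberg over all probes, threshold 0.05), after a test on simulated data. Where a gene had several probes, the one on the most arrays was used. P450 genes were symbols with Cyp, a digit, a letter and a digit, plus the named hormone-making ones; the stated rule of Cyp and a digit would have included Cyp40, a cyclophilin. Every member was named; other P450 and list genes were named where they were on at least 3 arrays of a time, and the 6 P450 genes on 3 or 4 arrays in all were added after their values were seen. For likeness the 3 genes of highest cosine were taken. Members and lists were chosen with earlier results of these data known. The arrays of a group are labelled as biological replicates, each a pair of head pools. For 12 h and 7 d the labels do not number the dye-swapped arrays, which follow accession order here and pair nothing. Alternatives were the reading as deposited, other centring, single spots, no discordant pairs, other filters, Cy5-treated arrays alone, each replicate left out, a replicate block and, added after the data were seen, no centring as deposited and no arrays of conflicting source names.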

Additional observations from a re-analysis of the deposited data

How the results depend on the processing

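The 16 results for the 3 genes gave 227 values under the alternatives. Of these, 0 passed the threshold and 37 lay on the other side of 0. Adjusted limma p-values ran from 0.293 to 0.9998. Some of the 227 could not change sign. Another filter on the number of arrays, or leaving out an array without a value for the gene, repeats the main value. As deposited, the sign turned for Cyp313a1 at 12 h (-0.23), Cyp28d1 at 2 d (-0.31) and 7 d (-0.77), Cyp6d5 at 2 d (-0.14), Cyp28d1 7 d minus 12 h (-0.93) and 7 d minus 2 d (-0.46), and the averages over times of Cyp28d1 (-0.30) and Cyp313a1 (-0.37). As deposited and without centring, added after the data were seen, the same 8 results turned (-0.35, -0.53, -0.91, -0.38, -0.95, -0.39, -0.47 and -0.53 in that order). Without centring it turned for Cyp6d5 at 12 h (0.47) and 2 d (-0.074) and Cyp28d1 7 d minus 12 h (-0.60). Other sign changes were Cyp6d5 at 12 h centred on common probes (0.0031), Cyp6d5 at 2 d on Cy5-treated arrays (-0.020), Cyp28d1 2 d minus 12 h from first spots (0.012) and the Cyp313a1 average from second spots (-0.052). Leaving out each replicate gave 0.34 to 0.89 at 12 h, 0.30 to 0.60 at 2 d and 0.40 to 1.13 at 7 d for Cyp28d1. It gave 0.44 to 1.02, -0.70 to -0.12 and -0.44 to 0.16 for Cyp313a1, and -0.21 to 0.064 and -0.020 to 0.19 for Cyp6d5 at 12 h and 2 d. For 2 d minus 12 h, 7 d minus 12 h and 7 d minus 2 d it gave -0.49 to 0.18, -0.49 to 0.71 and -0.0018 to 0.53 for Cyp28d1, and -1.50 to -1.01, -1.06 to -0.72 and 0.22 to 0.43 for Cyp313a1. Averages over times were 0.44 to 0.71 and -0.23 to 0.31. The cause of these sign changes was not tested.

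The labels give numbers 1 and 2 at every time, and same-numbered arrays deviated together only at correlations of -0.0149 to 0.186, so the numbers were not taken as pairs. With a replicate block on those arrays, 2 d minus 12 h, 7 d minus 12 h and 7 d minus 2 d were -0.57, -0.84 and -0.26 for Cyp28d1 and -1.54, -1.06 and 0.48 for Cyp313a1, and the averages were 0.25 and -0.29. The same arrays without the block, an alternative added after the data were seen, gave -0.76 and -0.19 for the last 2 Cyp28d1 differences and -0.34 for the Cyp313a1 average. The block made no calls, as in the fit without it (0 of all probes).

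Counts of probes called moved from 0 to 10 at 7 d without centring, to 1 for 7 d minus 12 h from second spots, and to 1 at 12 h as deposited without centring. For the average over times they moved to 24 as deposited, 2 as deposited without centring and 1 without discordant pairs. Leaving out the arrays of conflicting source names moved no count between times. The filter on all 4 arrays gave no value for Cyp6d5 at 2 d or for any of the genes at 7 d, nor did Cy5-treated arrays alone at 7 d. With 3 or 4 arrays and unknown signal over background, a p above the threshold does not show equal expression.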
